A study of Mus musculus with 8 samples.

Results

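Of 1396 mature miRNAs listed for mouse spinal cord, 9 come from 5 hairpins at imprinted loci outside the large Dlk1-Dio3 cluster: both arms of miR-483, miR-675, miR-335 and miR-296, and miR-298-5p (mmu-miR in full, shortened to miR here). They were chosen by name, and all 9 are listed. Small RNA was sequenced from the spinal cord, left side, of C57BL/6 mice. In 4 bone cancer pain libraries, LL/2 mouse lung cancer cells had been transplanted into the marrow space of the left femur, and in 4 sham libraries that space had received the same amount of saline. The comparison asks which small RNAs differ in the cord when a tumour grows in the leg. The labels give neither age nor sex, and do not say whether each library is a separate animal. The spread behind the p-values is therefore that between libraries and may be technical. Levels are in CPM, reads scaled to the size of the library, as deposited.

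An imprinted gene is transcribed mainly from the chromosome inherited from 1 parent. Mest and Igf2 are expressed from the paternal copy and H19 from the maternal copy, and the Gnas locus holds several promoters of opposite imprint, with the antisense transcript Nespas on the paternal copy. Igf2 encodes a fetal growth factor, and Igf2 and H19 are switched off together after birth in most tissues, although in adult mice Igf2 stays on in the choroid plexus and the meninges. A miRNA is cut out of a hairpin as a duplex of a 5p and a 3p strand, of which one is usually kept by an Argonaute protein and the other degraded. The kept strand finds its targets mainly through its seed, bases 2 to 8.

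The 5 hairpins are shown whole, 5′ to 3′, because most of what follows is about their arms; capitals mark the mature 5p strand, then the mature 3p strand (RefSeq sequences, GRCm38.p6).
Mir335: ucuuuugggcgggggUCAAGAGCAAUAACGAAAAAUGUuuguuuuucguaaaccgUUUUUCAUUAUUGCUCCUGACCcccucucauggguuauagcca
Mir296: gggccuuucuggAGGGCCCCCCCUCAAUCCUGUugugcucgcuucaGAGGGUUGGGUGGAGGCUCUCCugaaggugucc
Mir298: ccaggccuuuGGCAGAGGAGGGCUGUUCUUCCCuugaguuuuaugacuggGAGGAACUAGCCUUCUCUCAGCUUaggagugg
Mir483: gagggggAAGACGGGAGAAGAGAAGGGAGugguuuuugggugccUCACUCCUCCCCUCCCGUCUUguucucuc
Mir675: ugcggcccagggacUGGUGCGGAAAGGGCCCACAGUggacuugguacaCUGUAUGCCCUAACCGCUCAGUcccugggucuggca

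Mir335 lies on the plus strand of chromosome 6 (chr6:30741299-30741396), in an intron of 7 of the 11 annotated Mest transcripts. Mir483 lies on the minus strand of chromosome 7 (chr7:142654924-142654996), in an intron of 7 of the 9 annotated Igf2 transcripts. Mir675, on the same strand at chr7:142577064-142577147, is 77.8 kb from Mir483 and within an exon of 3 of the 7 annotated H19 transcripts. Mir296 (chr2:174267047-174267125) and Mir298 (chr2:174267504-174267585) are 378 bases apart on the minus strand of chromosome 2. They lie in no other gene of the GENCODE annotation of GRCm38. The nearest gene is Nespas, on the same strand, whose annotated end is 13652 bases from Mir298, and Gnas itself runs on the opposite strand from 16735 bases away. The name of the Gnas locus therefore stands here for a neighbourhood, since this annotation gives no host transcript. Whether an unannotated transcript holds them was not tested.

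The mature strands are shown with the seed in capitals, since the seeds turned out to be unlike each other.
mmu-miR-335-5p: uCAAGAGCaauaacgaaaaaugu
mmu-miR-335-3p: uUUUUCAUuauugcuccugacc
mmu-miR-296-5p: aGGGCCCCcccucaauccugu
mmu-miR-296-3p: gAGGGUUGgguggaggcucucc
mmu-miR-298-5p: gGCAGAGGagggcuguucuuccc
mmu-miR-483-5p: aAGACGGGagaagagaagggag
mmu-miR-483-3p: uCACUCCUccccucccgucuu
mmu-miR-675-5p: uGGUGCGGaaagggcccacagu
mmu-miR-675-3p: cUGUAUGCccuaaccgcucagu
No seed is shared between the 9, and none of the 1180 listed names with a RefSeq sequence shares a seed with any of them. Each is thus the only listed carrier of its seed among the names that could be matched. The strands are 21 to 23 bases long. CPM is not corrected for how well each sequence is captured in a library, so levels of different strands are compared as reads only. G and C make up 30.4% of miR-335-5p and 36.4% of miR-335-3p, against 54.5% to 68.2% in the other 7.

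The 8 libraries held 5220739 to 9260169 reads of listed miRNAs, and 3 reads correspond to 0.222 to 0.390 CPM. Tissue checks gave a high and even sum of neuronal miRNAs (all arms of miR-9, miR-124 and miR-128, 7 of 7 above 0 in every library). It was 97734 to 124487 CPM in bone cancer pain and 105213 to 119006 CPM in sham. Most of it was miR-9-5p, with a mean of 93719 CPM over the 8 libraries, while miR-124-3p averaged 937 CPM. Muscle miRNAs were uneven, at a summed 6068 to 16950 CPM in bone cancer pain and 5379 to 29313 CPM in sham, the 3 highest being sham 1, sham 2 and bone cancer pain 4. Of the 12 muscle names, 5 were at 0 in at least 1 library, among them the heart miRNAs miR-208a-3p and miR-208b-3p. Red cell miRNAs summed to 2171 to 3631 CPM in bone cancer pain and 1056 to 4786 CPM in sham. That sum holds both miR-486a-5p and miR-486b-5p, with near-equal means of 874 CPM each, so reads may be in it more than once. Those of smooth muscle and endothelium summed to 23461 to 35667 CPM in bone cancer pain and 16951 to 29488 CPM in sham. For choroid plexus and ciliated cells the sums were 2418 to 2807 CPM and 2262 to 2869 CPM. The hepatocyte miRNA miR-122-5p stood at 0.53 to 18.1 CPM in bone cancer pain and 1.41 to 5.98 CPM in sham.

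Levels differed far more between the loci than between the groups. Mir335 supplied 87.2% of the summed CPM of the 5 hairpins, Mir298 supplied 7.35%, Mir296 supplied 4.97%, and Mir483 supplied 0.488%. The 9 together averaged 493 ± 80.6 CPM in bone cancer pain and 479 ± 80.9 CPM in sham (SD, n = 4 each). In the order of all 1396 listed miRNAs by mean CPM, miR-335-3p stood at place 113, miR-335-5p at 249, miR-298-5p at 257, miR-296-3p at 331 and miR-296-5p at 366. The arms of miR-483 stood at 562 and 601, and those of miR-675 at 1196 and 1373. Neighbours in that order could not always be told apart: miR-335-5p and miR-298-5p had means of 38.4 and 35.4 CPM over the 8 libraries, within the spread of either.

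**Figure D1:**
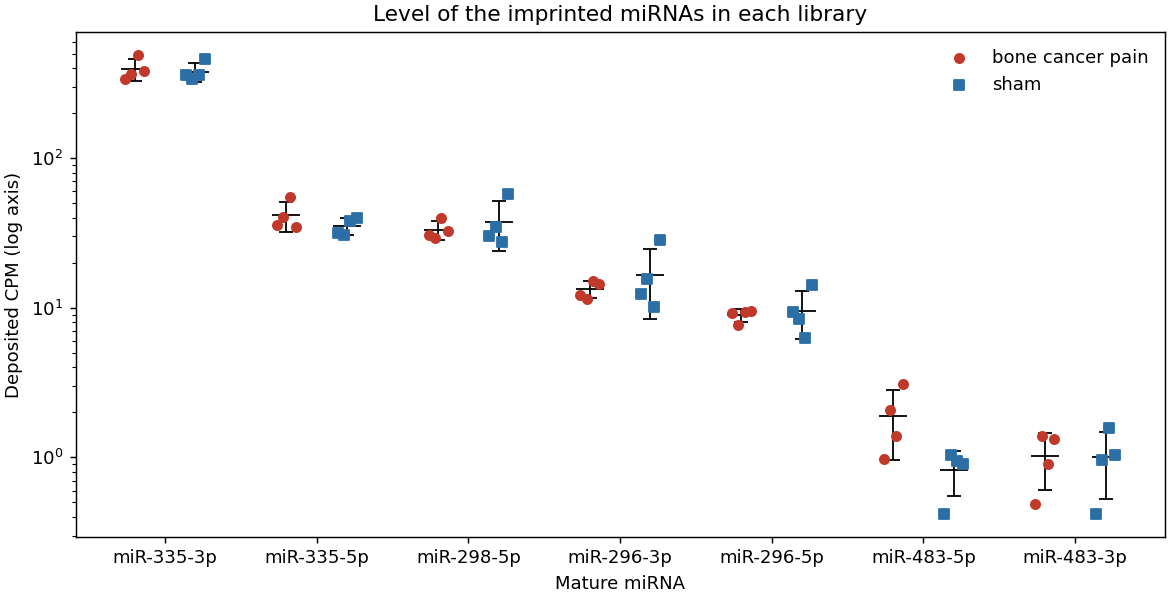
Deposited CPM (log axis) of the 7 members that averaged 1 CPM or more, 1 point per library, bone cancer pain as circles and sham as squares, with bars for the mean and SD (n = 4 each). Single libraries run from 0.42 CPM for both arms of miR-483 in sham 1 to 488 CPM for miR-335-3p in bone cancer pain 3, and in sham the highest point of miR-298-5p and miR-296-3p is sham 4, at 58.0 and 28.2 CPM.

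miR-335, from the intron of the paternally expressed Mest, first described in mesoderm, was the most abundant. miR-335-3p stood at 339, 364, 488 and 384 CPM in bone cancer pain libraries 1 to 4, and at 359, 336, 359 and 457 CPM in sham libraries 1 to 4. The groups overlapped, and the highest library of each was bone cancer pain 3 and sham 4. miR-335-5p, the strand for which human breast cancer work made this miRNA known as a suppressor of metastasis, stood at 35.9, 40.7, 55.3 and 34.5 CPM in bone cancer pain and at 31.8, 30.7, 38.2 and 39.8 CPM in sham. Here too bone cancer pain 3 was highest, and the groups overlapped.

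In limma's moderated test over all 605 miRNAs that averaged 1 CPM or more, the log2 fold change (bone cancer pain over sham, of CPM + 1) was 0.05 for miR-335-3p (95% interval -0.28 to 0.39, adjusted p = 0.967). For miR-335-5p it was 0.22 (95% interval -0.17 to 0.61, adjusted p = 0.943). Neither passed, and the intervals leave room for at most a 1.31-fold and a 1.53-fold higher level. Without bone cancer pain 3 the values were -0.05 and 0.08, so the direction of miR-335-3p rested on that library. With 16375 reads of miR-335-3p in bone cancer pain and 16036 in sham, counting error was small: it would give a coefficient of variation of 1.56% and 1.58%, where 16.7% and 14.3% were seen.

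miR-296 and miR-298, from the Gnas neighbourhood and reported in mouse to be expressed from the paternal copy, were next. miR-298-5p stood at 30.7, 29.4, 39.9 and 32.8 CPM in bone cancer pain and at 30.3, 34.9, 27.6 and 58.0 CPM in sham. miR-296-3p stood at 12.2, 11.5, 15.2 and 14.3 CPM in bone cancer pain and at 12.3, 15.5, 10.1 and 28.2 CPM in sham. miR-296-5p, known from human endothelial cells as a miRNA of blood vessel growth, stood at 9.21, 7.66, 9.43 and 9.47 CPM in bone cancer pain and at 9.37, 8.45, 6.26 and 14.2 CPM in sham. In all of these sham 4 was the highest library and sham 3 the lowest, with the 4 bone cancer pain libraries between them.

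For this locus the sham libraries spread more widely, which rested largely on sham 4. The coefficient of variation of miR-296-3p was 13.0% in bone cancer pain and 49.0% in sham, where counting alone would give 8.51% and 7.72%. For miR-298-5p it was 14.1% and 36.8%, against 5.39% and 5.07% from counting. Without sham 4 the sham values were 21.3% for miR-296-3p and 11.96% for miR-298-5p. The log2 fold changes were -0.13 for miR-298-5p (95% interval -0.62 to 0.37), -0.20 for miR-296-3p (-0.79 to 0.39) and -0.04 for miR-296-5p (-0.52 to 0.44). Their adjusted p were 0.945, 0.943 and 0.978 by limma. Without sham 4 they were 0.10, 0.08 and 0.15, so the sign of all of them rested on that library. That of miR-296-5p also turned, to 0.02, without bone cancer pain 2. In sham 4 the summed red cell miRNAs were 1056 CPM, the lowest of the 8 libraries, and it also had the fewest reads. Whether either has a part in its high miR-296 and miR-298 was not tested.

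Of the neighbouring hairpins, miR-298-5p and miR-296-3p moved together across libraries. Over the 8 libraries, log2(CPM + 1) of miR-298-5p and miR-296-3p had a Pearson's r of 0.98 (exact permutation p = 0.000397, adjusted p = 0.00198 over 5 relations computed) and a Spearman's rho of 0.95 (exact permutation p = 0.00114, adjusted p = 0.0057). Without sham 4 and bone cancer pain 3, the libraries farthest from the median, r was 0.99 over 6 libraries, so the relation did not rest on sham 4. Of all tested miRNAs, miR-296-3p had the pattern most like that of miR-298-5p, and the reverse also held. However, miR-342-3p, which is not of this locus, was nearly as close to each, at r = 0.97. Closeness of this size was thus not particular to the neighbours. All values share the library denominators. Each group has 4 libraries, too few for a correlation within it.

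The ratio between the neighbours was correspondingly steady. miR-298-5p stood at 2.53, 2.55, 2.63 and 2.28 times the CPM of miR-296-3p in bone cancer pain and at 2.47, 2.25, 2.72 and 2.06 times in sham. The levels themselves spanned 2.10-fold for miR-298-5p and 2.78-fold for miR-296-3p. With miR-296-5p the relation was looser (Pearson's r = 0.88, exact permutation p = 0.00982, adjusted p = 0.0164; Spearman's rho = 0.79, exact permutation p = 0.0279, adjusted p = 0.0573), with r = 0.64 without the same libraries. The mean log2 ratio of miR-298-5p to miR-296-5p was 1.78 ± 0.15 in bone cancer pain and 1.86 ± 0.18 in sham (SD, n = 4 each), a difference of -0.09 (two-sided exact permutation test, p = 0.457, with 0.0286 the smallest that 4 against 4 allows). Without sham 1 it was -0.18 (exact permutation p = 0.143), and without bone cancer pain 1, 3 or 4 or sham 3 or 4 it was -0.04, -0.15, -0.06, -0.05 and -0.05.

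Values for the 2 arms of 1 hairpin are set beside these, with no test of the difference between correlations. For miR-296 the arms had r = 0.90 (exact permutation p = 0.00937, adjusted p = 0.0164) and rho = 0.74 (exact permutation p = 0.0458, adjusted p = 0.0573), but r = 0.34 without sham 4 and sham 3. In bone cancer pain miR-296-5p varied no more than counting alone would give, with a coefficient of variation of 9.65% against 10.4%, which limits any r with it. For miR-335 they had r = 0.80 (exact permutation p = 0.0258, adjusted p = 0.0322) and rho = 0.76 (exact permutation p = 0.0368, adjusted p = 0.0573), but r = 0.38 without bone cancer pain 3 and sham 2. Both relations were thus weaker without the libraries left out, which for both hairpins were the highest and the lowest. Leaving out such libraries narrows the range of levels, which can lower r by itself. For miR-483 r was 0.61 (exact permutation p = 0.0876, adjusted p = 0.0876) and rho 0.38 (exact permutation p = 0.36, adjusted p = 0.36), with r = 0.47 without bone cancer pain 4 and 2. Among the 161 hairpins with both arms tested, the median r between arms was 0.48, with quartiles at 0.14 and 0.70.

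**Figure D2:**
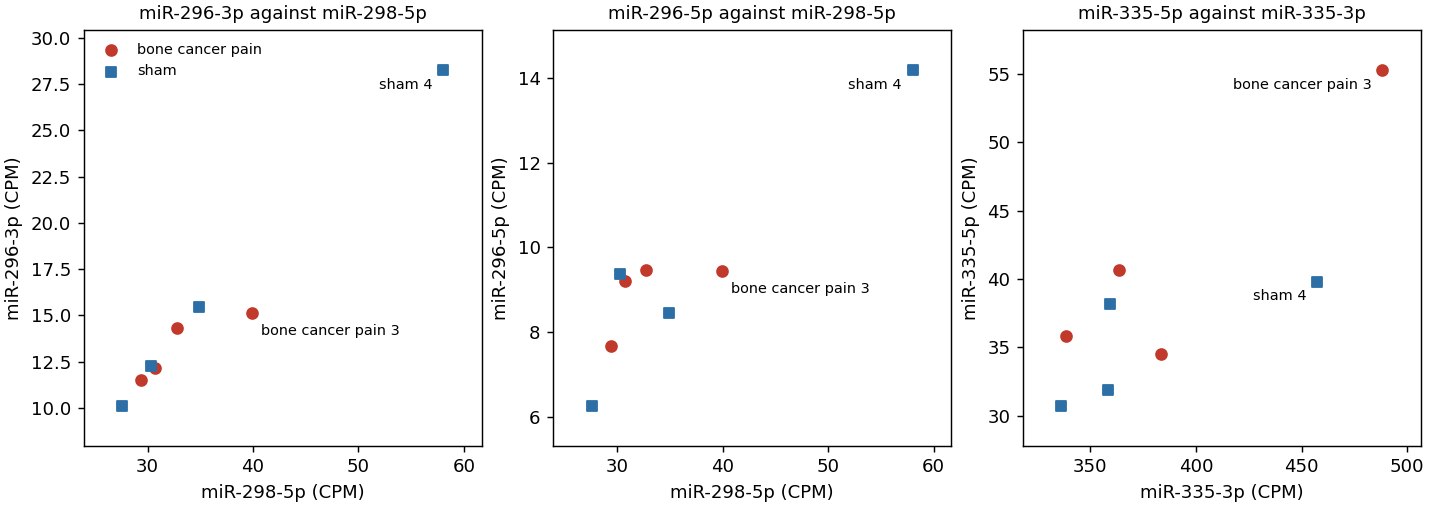
CPM of 1 mature miRNA against another in the same library, bone cancer pain as circles and sham as squares, with linear axes that do not start at 0. miR-296-3p follows miR-298-5p closely (Pearson's r = 0.98 on the log2 scale), also below sham 4 at the upper right, while miR-335-5p follows miR-335-3p more loosely (r = 0.80).

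Other miRNAs with a like pattern were named by the 3 highest Pearson's r over the 8 libraries, with no test. For miR-298-5p the next were miR-342-3p (r = 0.97), a miRNA of an intron of Evl, and miR-667-3p (0.96), of the Dlk1-Dio3 cluster. For miR-296-3p they were miR-3085-3p and miR-342-3p (both 0.97), and for miR-296-5p miR-5099 (0.95), miR-1839-5p and miR-3086-5p (both 0.94). miR-335-3p was most like miR-369-3p, of the Dlk1-Dio3 cluster, and miR-8114 (both 0.96), then let-7c-1-3p (0.95). miR-335-5p was most like miR-384-3p (0.95), miR-376a-5p (0.94), of the Dlk1-Dio3 cluster, and miR-873a-5p (0.91). The list of names used for that cluster, which may not be complete, holds 78 of all 605 tested miRNAs. Whether its names were more frequent among the miRNAs named here than that share was not tested.

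miR-483, from the Igf2 intron, was near the limit of the data, and it is where the groups stood farthest apart. The hairpin is best known from human Wilms tumours, where it is made in excess together with IGF2. miR-483-5p stood at 0.98, 2.06, 1.40 and 3.10 CPM in bone cancer pain, from 8, 25, 14 and 35 reads, and at 0.42, 1.04, 0.95 and 0.91 CPM in sham, from 4, 14, 12 and 7 reads. The groups overlapped, since bone cancer pain 1 lay below sham 2. The other 3 bone cancer pain libraries lay above every sham library. miR-483-3p stood at 0.49, 1.40, 0.90 and 1.33 CPM in bone cancer pain and at 0.42, 0.96, 1.58 and 1.04 CPM in sham, and each group gave 45 reads of it.

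For miR-483-5p the log2 fold change was 0.62 (SE 0.23, 95% interval 0.10 to 1.13, adjusted p = 0.887 by limma), at an unadjusted p of 0.0227, and so did not pass. It averaged 1.89 ± 0.924 CPM in bone cancer pain and 0.830 ± 0.279 CPM in sham (SD, n = 4 each). Near 1 CPM the value depends on the scale: it was 0.93 on log2(CPM + 0.25) and 1.19 by edgeR on recovered reads (adjusted p = 0.572). Leaving out 1 library gave 0.43 to 0.78, the lowest without bone cancer pain 4. In bone cancer pain 4 the connective tissue and meninges miRNAs summed to 2295 CPM, the highest of all libraries. The list was all arms of miR-199a, miR-199b and miR-214, 6 of 6 above 0 in every library. The other bone cancer pain libraries held 527 to 893 CPM and sham 499.3 to 1446 CPM. miR-199a-3p and miR-199b-3p had the same mean, 405 CPM, and the same log2 fold change, so these sums hold the same reads more than once. Sham 1 held 1247 CPM and had the lowest miR-483-5p of all libraries, at 0.42 CPM. The choroid plexus and ciliated cell miRNAs summed to 2418 CPM in bone cancer pain 4, the lowest of that group. Between the groups, 6 of 6 tested miRNAs of smooth muscle and endothelium had a higher mean log2 level in bone cancer pain. Those of muscle had a lower one for 7 of 7, and miR-122-5p was also lower. A higher mean log2 level was seen for 5 of 6 red cell and 5 of 6 connective tissue and meninges miRNAs. It was also seen for 5 of 7 of choroid plexus and ciliated cells and 3 of 7 of neurons. Arms of 1 hairpin are counted separately in these lists. Of all 605 tested miRNAs 292 had a higher and 313 a lower mean log2 level. The smooth muscle and endothelium sum was highest in bone cancer pain 1, at 35667 CPM, where miR-483-5p was the lowest of its group. Whether any of these cells has a part in the miR-483-5p reads was not tested, and in bulk tissue more cells of a type cannot be told apart from more RNA per cell. For miR-483-3p it was 0.03 (95% interval -0.46 to 0.51, adjusted p = 0.989), or -0.13 without sham 1.

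By pattern over the 8 libraries, miR-483-5p was most like miR-15a-5p (Pearson's r = 0.92), miR-17-5p and miR-574-3p (both 0.90). miR-483-3p was most like miR-466c-5p (0.87), of the Sfmbt2 cluster, miR-7015-3p (0.85) and miR-375-3p (0.83). Both arms rest on 4 to 35 reads a library, so these places are uncertain.

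miR-675, cut from an exon of H19 and known in mouse as a brake on placental growth, was at or near 0. miR-675-5p gave 1 read in bone cancer pain 4 and 1 in sham 1, and miR-675-3p gave 1 read in sham 2. The other libraries were at 0, and every value was below the 3 reads that a count of 0 allows, so no fold change can be given. miR-483, 77.8 kb away, was above 0 in 8 of 8 libraries for both arms, with 119 and 90 reads in all. Their host genes H19 and Igf2 are known for opposite imprints, but the CPM values do not tell from which parental copy any read came.

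Arm use also differed between the hairpins. The 5p share, the 5p reads as a percent of the reads of both arms, is free of library scaling but not of how well each strand is captured. Over all libraries it was 9.08% for miR-335, 38.3% for miR-296, 56.9% for miR-483 and 99.1% for miR-298, whose 3p arm gave 28 reads against 2931. miR-298-3p is listed beside the 9 and stood at 0.10 to 0.73 CPM. Among the 301 hairpins with both arms listed and a summed mean of at least 1 CPM, the major arm held over 90% in 194 (64.5%) and under 70% in 47 (15.6%). miR-335 and miR-298 were thus among the many hairpins with 1 dominant arm, the 3p in miR-335 and the 5p in miR-298, and miR-296 and miR-483 among the fewer with a mixed output.

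For miR-335 the 5p share was 9.57%, 10.1%, 10.2% and 8.26% in bone cancer pain and 8.16%, 8.37%, 9.61% and 8.01% in sham. Counting error was not small beside the spread between libraries, with an exact 95% interval of 8.55% to 10.7% in bone cancer pain 1. Bone cancer pain 4 lay with the lower sham libraries and sham 3 with the higher bone cancer pain libraries. The difference was 0.978 points (two-sided exact permutation test, p = 0.143, adjusted p = 0.286 over 4 hairpins). For miR-296 it was 40.3 ± 2.00% in bone cancer pain and 37.5 ± 4.29% in sham (exact permutation p = 0.286, adjusted p = 0.381, SD, n = 4 each). That difference of 2.75 points was 4.66 points without sham 1 (adjusted p = 0.0571 by the exact permutation test), 1.81 without bone cancer pain 1 and 1.38 without sham 4. For miR-298 it was 99.1 ± 0.607% and 98.9 ± 0.893% (exact permutation p = 0.714, adjusted p = 0.714).

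For miR-483 the groups did not overlap. The 5p share was 66.7%, 59.5%, 60.9% and 70% in bone cancer pain and 50%, 51.9%, 37.5% and 46.7% in sham, a difference of 17.8 points (exact permutation p = 0.0286, the smallest possible, adjusted p = 0.114 over 4 hairpins). In 4 of 4 bone cancer pain libraries the share was above that of every sham library. It did not pass after adjustment, and could not have done so alone. A hairpin that alone reaches the smallest possible p of 0.0286 has 0.114 after adjustment over 4 hairpins. The adjusted p therefore does not decide whether the share differs. The shares come from 8 to 50 reads a library, and the exact 95% intervals are wide, 34.9% to 90.1% in bone cancer pain 1 and 15.7% to 84.3% in sham 1, so the intervals of the groups overlap. Of the 4 hairpins 1 had groups that did not overlap, and among all 301 hairpins 9 did (2.99%). Since miR-483-5p was already known to be higher in these libraries, its share is not independent evidence.

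**Figure D3:**
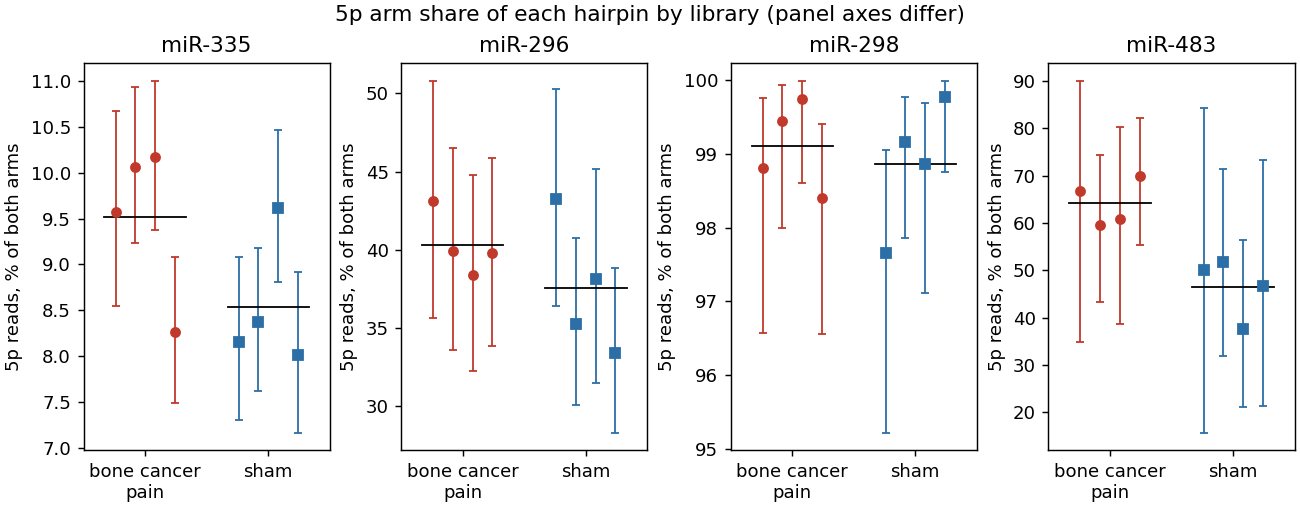
The 5p reads as a percent of the reads of both arms in each library, with exact (Clopper-Pearson) 95% intervals of counting error and a line at each group's mean; the axes differ between hairpins and do not start at 0. The bone cancer pain points of miR-483 all lie above the sham points. Their intervals are wide, 34.9% to 90.1% in bone cancer pain 1. For miR-335 the intervals are narrower, 8.55% to 10.7% in bone cancer pain 1, but wide beside the spread between libraries, and the groups overlap.

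Over the whole list, 0 of the 7 tested members passed limma's adjusted threshold of 0.05, as did 0 (0%) of all 605 tested miRNAs. At an unadjusted p under 0.05 there was 1 of 7, miR-483-5p, and 28 of 605 (4.63%). The groups did not overlap in CPM for 0 of 7, against 22 of 605 (3.64%). On recovered reads, edgeR and DESeq2 likewise passed 0 of 7 with adjusted p, and each had 1 of 7, again miR-483-5p, under 0.05 before adjustment. Of the 7, 4 had a positive and 3 a negative log2 fold change, with a median of 0.03, against a median of -0.01 over the 605. The 2 arms of miR-675 were too low to be tested.

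**Figure D4:**
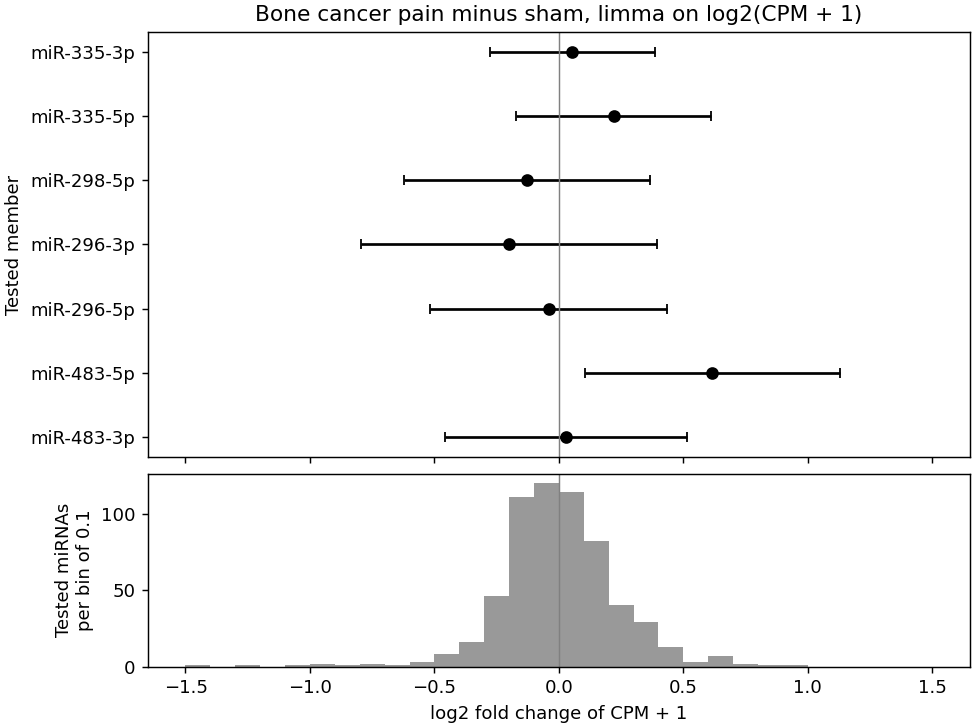
Upper panel: log2 fold change of CPM + 1, bone cancer pain over sham, with 95% intervals from limma for the 7 tested members. Lower panel: the number of all 605 tested miRNAs by log2 fold change. The interval of miR-483-5p, 0.10 to 1.13, is the one that does not reach 0, before adjustment, and the other 6 lie across 0.

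The other imprinted miRNA clusters of the mouse were set beside the members by their counts. The Dlk1-Dio3 cluster, expressed from the maternal copy and rich in neuronal miRNAs, summed to 73803 ± 6669 CPM in bone cancer pain and 78774 ± 4322 CPM in sham (SD, n = 4 each). Of the 78 tested names on the list used for this cluster, 29 had a positive and 49 a negative log2 fold change, with a median of -0.07. Of all 605 tested names 292 had a positive and 313 a negative one, with a median of -0.01. The paternally expressed cluster in an intron of Sfmbt2, best known from the placenta, holds near-identical copies, and names with identical values in all libraries, whose reads cannot be assigned to 1 copy, were counted once. It then summed to 560 ± 87.8 CPM in bone cancer pain and 628 ± 98.1 CPM in sham (SD, n = 4 each), with 10 of 28 tested higher and 18 lower and a median of -0.04. By limma 0 of 78 and 0 of 28 passed the adjusted threshold, and 3 and 1 had an unadjusted p below 0.05. Over all tested names the latter held for 28 of 605 (4.63%).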

How the data were processed

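The authors deposited 1 table of 1396 mature miRNAs in CPM, rounded to 2 decimals; a library's values sum to 669252 to 701908, so the deposited CPM scale also counts other reads. Per the submitters' processing notes, fastp, STAR, Bowtie, Salmon and the build mm10 were used, without roles or versions; small RNA size selection is not given in the sources used here. Columns that could not be mapped numbered 0.

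Members and lists were chosen with earlier results of these data known. The text names the members, other arms of their hairpins, miRNAs sharing a seed (none) and the 3 miRNAs most correlated with each tested member. limma 3.58.1 (R 4.3.3; mean-variance trend, two-sided, Benjamini-Hochberg) was fitted to log2(CPM + 1) for the 605 that averaged 1 CPM or more, each name counted separately unless stated. A fold change on this scale understates changes near 1 CPM. Reads were recovered from the smallest CPM steps: 100% of values up to 100 CPM were whole reads in each library (tolerance 0.0051 CPM). The step of bone cancer pain 3 is near 0.1 CPM, yet only 16.6% of its values from 1 CPM up were multiples of 0.1, so it is not rounding. Reads gave the arm shares and the added edgeR 4.0.16 and DESeq2 1.42.0 fits; intervals and floors cover counting error only. Permutation tests used SciPy 1.17.1. No library was a copy of another (chi-square over degrees of freedom 31.8 to 503 within groups). Functions were tested on simulated data. Sequences and positions are from RefSeq GRCm38.p6 and GENCODE M21.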

Additional observations from a re-analysis of the deposited data

Results flagged for a closer look

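Of 26 sets of 4 libraries examined for a library far from the other 3, 2 stood out by Dixon's test at its 95% critical value, and chance gives about 1 in 20. miR-296-5p in bone cancer pain had 7.66 CPM in library 2, below 9.21, 9.43 and 9.47 CPM in the others, a gap of 0.856 of the range. The log2 ratio of miR-298-5p to miR-296-5p in sham was 1.59 in library 1, below 1.93, 1.98 and 1.96 in the others, a gap of 0.865 of the range.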

How the results depend on the processing

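Of 189 values recomputed under other settings, 179 kept their direction and their side of the threshold, and 10 turned. No count or member passed a threshold under any setting run: 0 of the tested miRNAs passed in all of them, and the smallest adjusted p of a member was 0.572, for miR-483-5p by edgeR. miRNAs at an unadjusted p under 0.05 numbered 28 of 605, against 66 of 1396 without a filter, 17 of 356 at a 10 CPM filter, 43 by edgeR, 41 of 603 with median-of-ratios scaling, 18 without sham 1 and sham 2, and 22 to 42 with 1 library left out, the highest without bone cancer pain 3 or sham 3. Leaving out 1 library gave log2 fold changes of 0.43 to 0.78 for miR-483-5p, -0.13 to 0.17 for miR-483-3p, 0.08 to 0.30 for miR-335-5p, -0.054 to 0.15 for miR-335-3p, -0.20 to 0.15 for miR-296-5p, -0.39 to 0.079 for miR-296-3p and -0.25 to 0.10 for miR-298-5p. It gave arm share differences of 14.8 to 19.5 points for miR-483 (smallest adjusted p 0.0571 by the exact permutation test, without sham 1), 0.760 to 1.40 for miR-335, 1.38 to 4.66 for miR-296 and -0.163 to 0.545 points for miR-298, and log2 ratios of miR-298-5p to miR-296-5p that differed by -0.18 to -0.04. Without sham 1 and sham 2, high in muscle miRNAs (added after seeing the data), miR-483-3p was at -0.20 and miR-335-3p at -0.057. As a log2 arm ratio the miR-298 difference was -0.046. For arm shares, 1 hairpin alone could not pass after adjustment in any setting run, so those adjusted p do not decide. The cause of these turns was not tested. Same-numbered libraries deviated with correlations of -0.313 to -0.0111, so the numbers share only a label; a replicate block left 0 calls, 21 at an unadjusted p under 0.05, and an adjusted p of 0.939 for miR-483-5p. miR-483-3p fell under the filter without library 2 or 4 of bone cancer pain or without sham 3. Depth limits miR-483 and miR-675 most.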
